A study of Danio rerio with 4 samples.

Results

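Ribosome footprints on 8 genes, the genes of the ribosomal stalk proteins and of ribosomal proteins encoded by a pair of gene copies, were measured in brain tissue of zebrafish labelled nop2 mutant and set against brain tissue labelled nop2 sibling. The genes were chosen by name, namely rplp0, rplp1, rplp2, rplp2l, rpl22, rpl22l1, rps27.1 and rps27.2, and each matched 1 of the 25522 genes of the deposited Ribo-seq table. All 8 reached a mean of 1 CPM over both libraries, as did 18127 genes in all. CPM is the reads of a gene per standard number of reads counted on genes in its library. Ribo-seq recovers stretches of RNA shielded by ribosomes, so a count here is a number of footprint reads. There was 1 nop2 mutant library, with 18884879 reads counted on the listed genes, and 1 sibling library, with 20696345 such reads. The age is 48 days after fertilization in the sample titles and 48 hours in the design text of the series. The nop2 allele, the genotype mixture of the siblings and the number of brains per library are not stated in the labels. A second assay, bisulfite sequencing of RNA, also had 1 library per genotype.

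The stalk is a flexible arm of the large (60S) ribosomal subunit. Its base is P0, the product of rplp0, to which dimers of the small acidic proteins P1 and P2 bind, and the tips of P0, P1 and P2 recruit the GTPases that drive elongation. Rpl22 and Rpl22l1 are alternative versions of 1 protein of the 60S subunit, and in mouse cells Rpl22 is known to repress Rpl22l1. Rps27 belongs to the small (40S) subunit, and the RPS27L gene, a relative of RPS27, is a p53 target in human cells. Nop2, the mutated gene, encodes a nucleolar methyltransferase of ribosomal RNA that acts in 60S assembly.

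Neither library had a replicate, so no difference below carries a p-value. Intervals in brackets are exact 95% intervals that cover counting error only, and a log2 ratio is mutant over sibling CPM. Footprints on nop2 stood at 2.17 CPM in the mutant library and 31.7 CPM in the sibling library, a log2 ratio of -3.85 (-4.36 to -3.41). Total RNA was not analysed here, so transcript amount and ribosome load per transcript cannot be told apart. In whole tissue, fewer cells of a type and less RNA per cell cannot be told apart either. All 8 markers of neurons were detected in both libraries, with summed levels of 1460 CPM in the mutant and 1779 CPM in the sibling library, and 2 of them were higher and 6 lower in the mutant library. Of 6 listed markers of radial glia and progenitors 5 were found by name, and these 5 were detected in both libraries. Their summed levels were 674 CPM in the mutant and 1191 CPM in the sibling library. Even so, 3 were higher and 2 lower in the mutant library. Markers of tissues outside the brain were abundant and differed between the libraries. Summed levels were 20965 CPM in the mutant and 64700 CPM in the sibling library for 10 muscle markers, 21393 and 12916 CPM for 7 epidermis markers, 2653 and 6019 CPM for 6 lens markers, and 2895 and 1818 CPM for 5 blood markers. Of the 8 listed epidermis and 6 listed blood markers, 7 and 5 were found by name. All muscle and lens markers were lower, all blood markers were higher, and 6 epidermis markers were higher and 1 lower in the mutant library. No marker present in the table was at 0 in a library, and the part of tissue mixture in the ratios below was not tested.

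Of the 8 genes, 4 were higher and 4 lower in the mutant library. The 4 higher genes were rplp2l, rpl22, rps27.1 and rps27.2, all with counting intervals above 0, and their log2 ratios lay between 0.66 and 0.88. The lower genes were rplp0, rplp1, rplp2 and rpl22l1, all with counting intervals below 0. Among all 18127 genes 44.9% were higher and 55.1% lower, and 25.2% had a counting interval above 0 and 31.9% below 0. The lowest mean of the 8 genes was 29.8 CPM, that of rplp2. Among the 10065 genes of at least 10 CPM, 31.6% had an interval above 0 and 36.9% below 0. Of the other 72 ribosomal protein genes, 68 had an interval above 0 and 4 below 0. Intervals narrow as reads increase, so exclusion of 0 partly reflects read number. At least 2-fold lower were rplp2 and rpl22l1, against a background of 5.7%, and no gene of the 8 was at least 2-fold higher, against a background of 4.72%. The median over the 8 genes was -0.09, between the higher and the lower genes, and the median over all 18127 genes was -0.06.

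**Figure D1:**
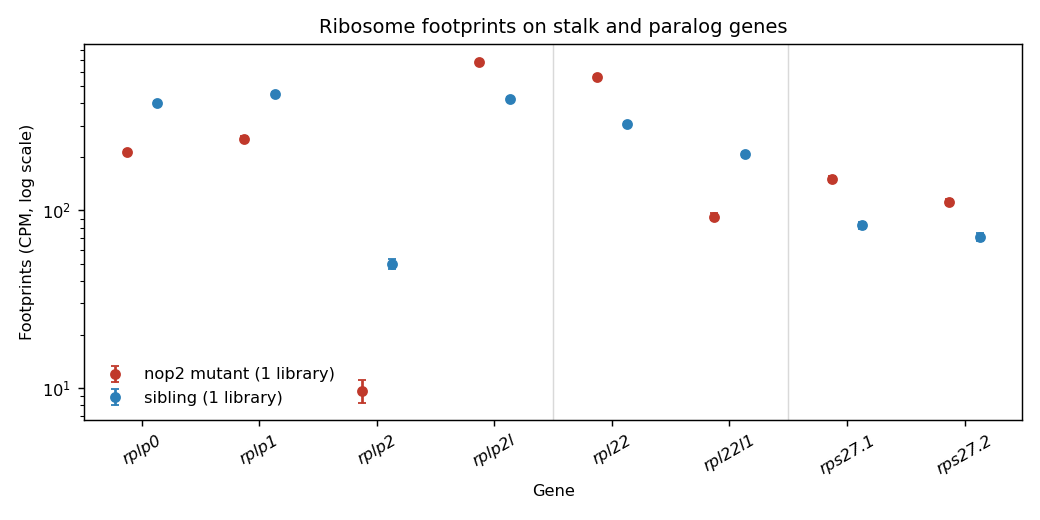
Footprint level in CPM (log scale) of each of the 8 genes in the nop2 mutant library (red) and the sibling library (blue), with 1 library each and bars for exact 95% counting intervals. The mutant point lies below the sibling point for rplp0, rplp1, rplp2 and rpl22l1 and above it for the other 4 genes.

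At the base of the stalk, rplp0 (ENSDARG00000051783) had 4025 reads (213 CPM) in the mutant library and 8358 reads (404 CPM) in the sibling library. The mutant level was 1.89-fold lower, a log2 ratio of -0.92 (-0.98 to -0.87). The P1 gene rplp1 (ENSDARG00000021864) had 254 CPM in the mutant library and 455 CPM in the sibling library. Its log2 ratio was -0.84 (-0.89 to -0.79), close to that of rplp0. The intervals of both genes overlapped, which does not show that the ratios are equal. No interval was computed for the difference between these genes.

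The P2 protein has a pair of genes, and their footprints lay on opposite sides. The gene rplp2 (ENSDARG00000101406) had 181 reads (9.58 CPM) in the mutant library and 1035 reads (50.0 CPM) in the sibling library, 5.21-fold lower, with a log2 ratio of -2.38 (-2.62 to -2.15). The other copy, rplp2l (ENSDARG00000011201), named rplp2b in the RefSeq gene table of assembly GRCz12tu, had 12845 reads (680 CPM) in the mutant library and 8764 reads (423 CPM) in the sibling library. That was 1.61-fold higher, a log2 ratio of 0.68 (0.64 to 0.72). The ratio of rplp2 minus that of rplp2l was -3.06 on the log2 scale (-3.31 to -2.83). That is an 8.36-fold difference between the mutant over sibling ratios of the copies, not between their levels. In it the scaling of the libraries cancels. Both copies had whole read counts in both libraries, and how reads that match both copies were assigned was not tested. Because rplp2l was the larger copy, the sum of both copies was higher in the mutant library, at 690 CPM against 473 CPM in the sibling library, with a log2 ratio of 0.54 (0.50 to 0.58).

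Levels per gene length, for which the authors' TPM (counts scaled by gene length and then to a common library total) were used, set the 3 stalk proteins side by side. Whether the gene length behind the TPM is the coding length, where footprints fall, was not tested. Every comparison per length between different genes, here and below, depends on that length. P0 stood at 199 TPM in the mutant and 393 TPM in the sibling library. P1 stood at 626 TPM in the mutant and 1167 TPM in the sibling library, and P2, summed over both copies, at 1687 and 1205 TPM. P1 and P2 were therefore nearly level in the sibling library, with a ratio of P1 to P2 of 0.969, and apart in the mutant library, with a ratio of 0.371. The ratio of P1 to P0 was 3.14 in the mutant and 2.97 in the sibling library, while the ratio of P2 to P0 was 8.48 and 3.07. The counts of rplp1 were not whole in either library, a limit on the P1 ratios taken up below. Summed over the 4 stalk genes, footprints were slightly lower in the mutant library, with 1157 CPM against 1332 CPM in the sibling library and a log2 ratio of -0.20 (-0.23 to -0.18).

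**Figure D2:**
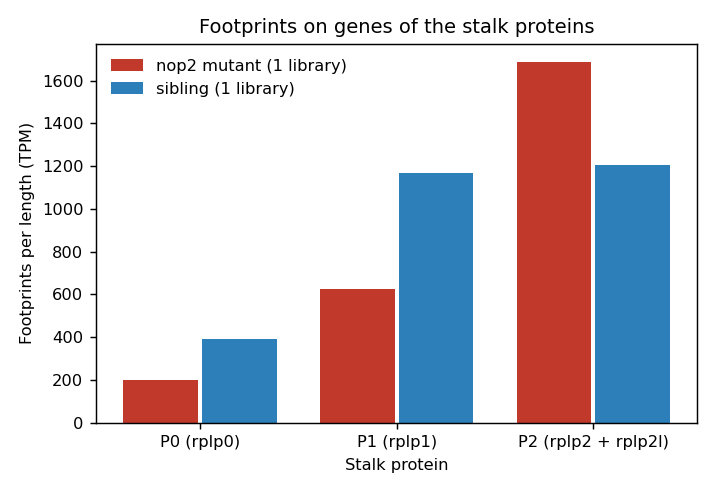
Footprints per gene length (TPM) on the genes of P0, P1 and P2 (rplp2 plus rplp2l) in the nop2 mutant library (red) and the sibling library (blue), 1 library each, with no error bar because there was no replicate. P0 and P1 are lower in the mutant library (199 and 626 TPM) than in the sibling library (393 and 1167 TPM), and P2 is higher (1687 against 1205 TPM).

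Of the paired 60S genes outside the stalk, rpl22 was higher and rpl22l1 lower in the mutant library. Footprints on rpl22 (ENSDARG00000070437) stood at 567 CPM in the mutant and 307 CPM in the sibling library, a log2 ratio of 0.88 (0.84 to 0.93), the highest of the 8 genes. Footprints on rpl22l1 (ENSDARG00000010244) stood at 92.3 CPM in the mutant library and 207 CPM in the sibling library. That was 2.24-fold lower, with a log2 ratio of -1.16 (-1.24 to -1.08). The copies differed by -2.05 on the log2 scale for rpl22l1 minus rpl22 (-2.14 to -1.95). Per length, rpl22l1 made up 16.8% of the footprints of the pair in the mutant library and 43.1% in the sibling library. The sum of both copies was higher in the mutant library, at 659 CPM against 513 CPM, with a log2 ratio of 0.36 (0.32 to 0.40).

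The length that the authors' TPM implied for rpl22l1 also differed between the libraries. The quotient of count and TPM reflects the gene length used, multiplied by a factor that all genes of a library share. Taken as mutant over sibling, this quotient is therefore equal for all genes whose length is the same in both libraries. For rpl22l1 this mutant over sibling value was 9.04% lower than for the median gene. Of the 12247 genes with at least 100 reads in each library, 81.0% lay within 1% of the median and 4.68% differed by more than rpl22l1 in either direction. The other 7 of the 8 genes lay within 1%. The counting program is not named in the labels, and what made this length differ was not tested. On the TPM scale the log2 ratio of rpl22l1 was -1.08.

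In the 40S subunit, both copies of rps27 were higher in the mutant library. Footprints on rps27.1 (ENSDARG00000023298) stood at 150 CPM in the mutant and 82.4 CPM in the sibling library, a log2 ratio of 0.86 (0.77 to 0.95). Footprints on rps27.2 (ENSDARG00000055475) stood at 112 CPM in the mutant and 70.8 CPM in the sibling library, a log2 ratio of 0.66 (0.56 to 0.75). The ratio of rps27.2 was the smaller by a difference of -0.20 on the log2 scale (-0.34 to -0.07). Neither copy had whole counts, and this interval does not cover how reads were divided between the copies. Per length, rps27.2 held 48.8% of the pair in the mutant library and 52.5% in the sibling library. As shares of reads, not corrected for length, rps27.2 held 42.7% (41.3% to 44.1%) in the mutant and 46.2% (44.5% to 48.0%) in the sibling library. Thus rps27.2 was the larger copy only per length and only in the sibling library. That lead depends on the gene lengths behind the authors' TPM, because rps27.2 had fewer reads than rps27.1 in both libraries. The per-length counting intervals of the copies overlapped in the mutant library. The sum of the pair had a log2 ratio of 0.77 (0.71 to 0.83), with 261 CPM in the mutant and 153 CPM in the sibling library.

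One more gene of this family, rps27l (ENSDARG00000100513), went further than either copy. It had 1317 reads (69.7 CPM) in the mutant library and 187 reads (9.04 CPM) in the sibling library, 7.70-fold higher, with a log2 ratio of 2.94 (2.73 to 3.18) and whole counts in both libraries. Of the per-length footprints of the 3 genes together, rps27l took 19.3% in the mutant library and 4.95% in the sibling library. The shares of rps27.1 were 41.4% and 45.1%, and those of rps27.2 were 39.4% and 50.0%.

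**Figure D3:**
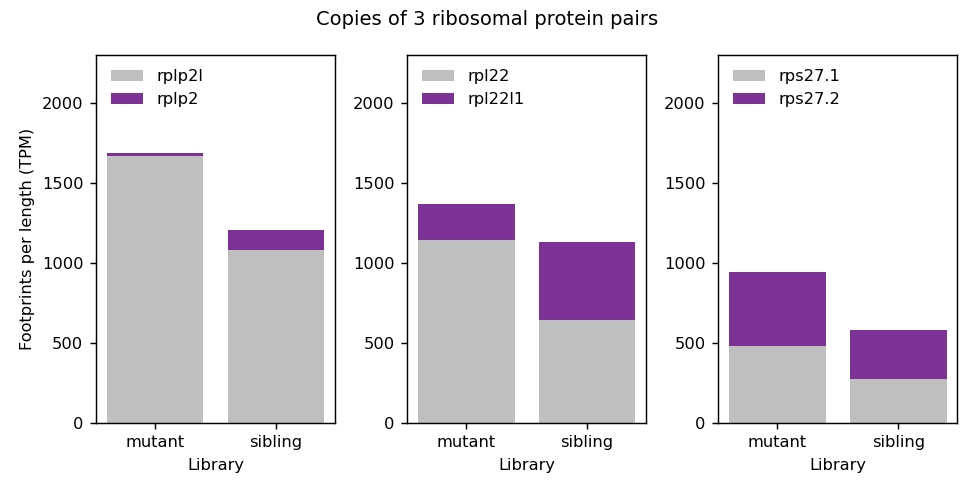
Footprints per gene length (TPM) of the copies of rplp2, rpl22 and rps27, stacked, in the nop2 mutant library (left bar of each panel) and the sibling library (right bar), 1 library each. The purple parts show rplp2 at 23.3 TPM in the mutant library against 126 TPM in the sibling library and rpl22l1 at 230 TPM against 486 TPM, while each whole bar is taller in the mutant library.

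The level per length ordered the 8 genes differently in the libraries. Each order depends on the gene lengths behind the authors' TPM. In the mutant library the order from the top was rplp2l (1664 TPM), rpl22 (1139), rplp1 (626), rps27.1 (482), rps27.2 (459), rpl22l1 (230), rplp0 (199) and rplp2 (23.3). In the sibling library it was rplp1 (1167 TPM), rplp2l (1079), rpl22 (643), rpl22l1 (486), rplp0 (393), rps27.2 (306), rps27.1 (276) and rplp2 (126). Among neighbours in these orders, the counting intervals overlapped only for rps27.1 and rps27.2 in the mutant library. Among all 80 ranked ribosomal protein genes, rplp1 ranked at place 69 in the mutant library and at place 10 in the sibling library. The copy rplp2l ranked at place 15 in the mutant and at place 13 in the sibling library.

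Not all read counts of these genes were whole numbers, as can happen when reads that match several places are divided among them. A count that was not whole in at least 1 library occurred in 5 of the 8 genes, against 27% of the 18127 measured genes and 13 of the other 72 ribosomal protein genes. The 3 genes with whole counts in both libraries were rplp0, rplp2 and rplp2l. The deposited counts of rps27.1 were 2827.41 in the mutant and 1705.61 in the sibling library, and those of rps27.2 were 2107.59 and 1466.39. They added up to 4935 and 3172 exactly, within 0.005 reads, and among all genes rps27.2 alone completed rps27.1 to whole numbers in both libraries. In the mutant library the counts of rpl22 (10698.83) and rpl22l1 (1744.17) also added up to a whole number, 12443, and both were whole in the sibling library. That match is less specific, because 14 genes completed rpl22l1 to whole numbers in both libraries. No single gene completed rplp1, with deposited counts of 4790.73 in the mutant and 9407.65 in the sibling library. The sums given above for each pair do not depend on how reads were divided within it. The differences between copies and the share of each copy do depend on that division, which their intervals do not cover. The level, ratio and rank of rplp1 and the ratios of P1 to P0 and P2 may depend on such division too. How reads of rplp1 were divided was not tested.

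Set against the other ribosomal protein genes, the lower genes of the stalk and rpl22l1 stood apart from the rest of the 60S subunit. All 40 other measured 60S genes were higher in the mutant library, with log2 ratios of 0.10 to 1.19 and a median of 0.75. Of the 32 other 40S genes 28 were higher and 4 lower, with a median of 0.76. Thus rplp0, rplp1, rplp2 and rpl22l1 were the 60S genes of this list with lower footprints, whereas rplp2l, rpl22, rps27.1 and rps27.2 lay within 0.13 of the median of the other 72 genes, which was 0.76. Together those 72 genes took 5.35% of the reads counted on genes in the mutant and 3.32% in the sibling library. The 4 lower 40S genes were the laminin receptor homolog gene rpsa (369 CPM in the mutant and 729 CPM in the sibling library, -0.98), rps12 (-0.34), rps2 (-0.27) and rps9 (-0.05). The ratio of rps9 turned to 0.0015 with TMM scaling and 0.0013 with DESeq2 size factors.

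Among the highest ratios of the other genes were those of rps27l, rpl11 (1.19) and rpl39 (1.11). The smallest ratio among the other 60S genes was that of rpl3 (0.10). By the authors' TPM, the most abundant of the other 60S genes were rpl19 (0.95) and rpl14 (0.72). Among the other 40S genes they were rps18 (0.88) and rps27a (0.87). The last 2 were also the genes nearest in log2 ratio to rpl22, at distances of 0.0019 and 0.013. For rplp2 the nearest of the other genes were rpsa and rps12, at distances of 1.40 and 2.04, so no other ribosomal protein gene had a ratio close to it. A likeness over 2 libraries rests on 1 ratio per gene.

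**Figure D4:**
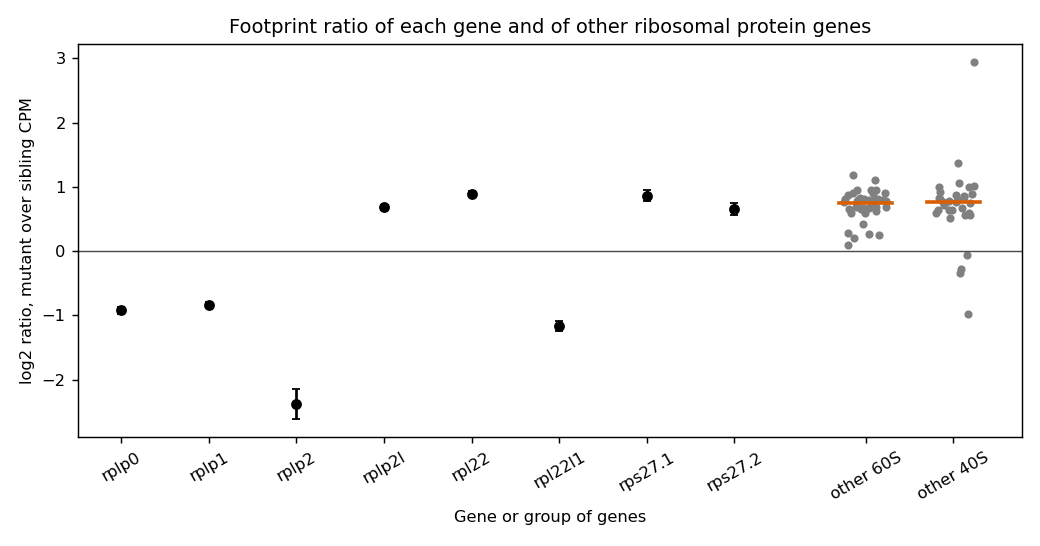
Log2 ratio of mutant over sibling CPM for each of the 8 genes (black, with 95% counting intervals) and for the other measured ribosomal protein genes of the 60S and 40S subunits (grey, 1 point per gene, with the median in orange). The ratios of rplp0, rplp1, rplp2 and rpl22l1 lie below every grey 60S point, the lowest of which is 0.10.

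Genes of proteins that assemble the stalk, sit at its base or work with it lay on both sides. Of 20 such genes listed by name, 18 were in the table and 13 reached 10 CPM. Of those 13, 5 had a counting interval above 0, 6 below 0 and 2 an interval that included 0. Among all 10065 genes that reached 10 CPM, 31.6% had an interval above 0 and 36.9% below 0, so these counts are no result about the group. The stalk assembly factor gene mrto4, a relative of rplp0, stood at 51.9 CPM in the mutant and 32.7 CPM in the sibling library (log2 ratio 0.67). The gene of Rpl12, the protein at the foot of the stalk, had a log2 ratio of 0.24. Among the GTPases that bind the stalk, the elongation factor gene eef1a1l1 stood at 9016 CPM in the mutant and 7741 CPM in the sibling library (0.22). The elongation factor gene eef2b stood at 3524 and 3571 CPM (-0.02), a value that turned to 0.04 with either DESeq2 size factors or TMM scaling. The related genes eef2l2 (-0.28) and eef1a1a (-0.26) were lower, and the ribosome recycling gene abce1 (0.18) and the GTPase gene drg2 (0.20) were higher. Casein kinase 2 phosphorylates stalk proteins, and its subunit genes csnk2b (-0.14), csnk2a2a (-0.27) and csnk2a2b (-0.22) were lower. The intervals of csnk2a1 (-0.03, or 0.03 with TMM scaling or DESeq2 size factors) and drg1 (0.07) included 0.

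The authors' deposited table gave log2 fold changes, computed from TPM, of -2.44 for rplp2, 0.62 for rplp2l, -1.08 for rpl22l1 and 0.83 for rpl22. All 8 genes had an FDR under 0.05 in the authors' deposited table, as did 38.7% of all listed genes. The listed genes include those below 1 CPM, and the share among genes as abundant as these 8 was not computed. The authors' test compared 1 library with 1 library and is not described in the labels. In the bisulfite data, none of the 8 genes was among the 92 gene names with a differential locus or the 51 gene names with a differential region in the authors' deposited tables, and neither was any other cytosolic ribosomal protein gene. The 92 and 51 names are few beside the 25522 genes of the Ribo-seq table, so this absence is no result about these genes. The bisulfite tables list only loci past the authors' threshold, so methylation of these transcripts below it was not analysed here.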

How the data were processed

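The genes described and the gene lists were chosen with earlier results of these data known, and some genes that the lists and rules name are not reported here. The tools named, with no roles, in the submitters' processing notes are methylKit, SAMtools, HISAT2, STAR, Bowtie2, fastp and Trimmomatic 0.38, and the build is GRCz11. The deposited Ribo-seq table held expected counts per gene, some not whole, and TPM per library, which the authors scaled by gene length. It also held the authors' log2 fold change, p-value and FDR. The deposited bisulfite tables gave a p-value per locus and an area score per region, and their 4 columns of levels for conditions that no label ties to a genotype were not used, only gene names. Here counts were rounded, 0.5 was added, and ratios of CPM were formed. One read was worth 0.0530 CPM in the mutant and 0.0483 CPM in the sibling library. Genes that averaged 1 CPM or more were called measured. Intervals of a ratio were exact Clopper-Pearson intervals conditional on the summed reads, those of a difference between copies exact intervals of the odds ratio, and those of a level exact Poisson intervals. Only the intervals of a ratio were tested on simulated data. Those data were independent whole Poisson counts, as the interval assumes, so the test did not cover divided reads. Whether reads carry molecular identifiers is not known here, so intervals may be too narrow. Named genes were the 8 genes, nop2, rps27l, and, among other ribosomal protein genes at 10 CPM, the 5 highest and 5 lowest ratios, the 2 most abundant per subunit, and the 2 nearest in ratio to the highest and the lowest of the 8 genes, with partners at 10 CPM. The list of other ribosomal protein genes took symbols beginning rpl or rps, without S6 kinases, rps19bp1 and rpl7l1. Of the 8 gene identifiers 8 matched the table of gene names. Python 3.11.15, SciPy 1.17.1, R 4.3.3, edgeR 4.0.16 (TMM factors) and DESeq2 1.42.0 (size factors) were used. Alternatives were TMM scaling, DESeq2 size factors, TPM, a pseudocount of 1, unrounded counts, and minima of 10 CPM or 1 read.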

Additional observations from a re-analysis of the deposited data

How the results depend on the processing

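All 8 genes kept the sign of their log2 ratio under TMM scaling, DESeq2 size factors, the authors' TPM, a pseudocount of 1 and unrounded counts. TMM scaling and DESeq2 size factors raised every ratio by 0.05. The sums of copies became 0.60 under both for rplp2 with rplp2l (0.48 with TPM) and 0.41 under both for rpl22l1 with rpl22 (0.28 with TPM). The sum of rps27.1 with rps27.2 became 0.69 with TPM. The sum of the 4 stalk genes, an alternative added after seeing the data, was -0.15 under both scalings and -0.14 with TPM. The difference between rpl22l1 and rpl22 was -1.91 with TPM. The median of the other ribosomal protein genes was 0.81 under both scalings. As shares of reads instead of TPM, rpl22l1 made up 14.0% of its pair in the mutant and 40.2% in the sibling library, and rps27.2 42.7% and 46.2%. Genes at least 2-fold higher numbered 856, or 524 with TPM, 2082 at a minimum of 1 read and 362 at 10 CPM. Genes at least 2-fold lower numbered 1034, or 2498 and 333 at these minima. Among named genes the sign turned for csnk2a1, whose interval included 0 (0.025 with either scaling), for rps9 (0.0015 with TMM, 0.0013 with DESeq2 size factors) and for eef2b (0.036 with TMM, 0.035 with DESeq2 size factors). Beyond the construction of each setting, the cause was not tested. No paired analysis was possible because each genotype had 1 library, and for the same reason no library could be left out.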

Other observations

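The rpl5 and rps26 pairs, chosen after their values were seen, did not lie on opposite sides. The log2 ratio was 0.26 for rpl5a and 0.95 for rpl5b, with a difference of -0.69 (-0.74 to -0.63). It was 0.91 for rps26 and 1.00 for rps26l, with a difference of -0.09 (-0.17 to -0.01). None of these 4 genes had whole counts in both libraries, and the counts of each pair added up to a whole number in each library.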
